A study of Homo sapiens with 24 samples.

Results

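The CDK inhibitors are the 8 genes CDKN1A (p21), CDKN1B (p27), CDKN1C (p57), CDKN2A (p16 and p14ARF), CDKN2B (p15), CDKN2C (p18), CDKN2D (p19) and CDKN3 (KAP). They were found on the array by the gene name printed with each probe, which gave 11 of 34127 probes. All 11 entered the test, among 18979 probes of 15158 genes.

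The cells were HCT-116, a human colorectal cancer line, stably transfected with a Tet repressor and a doxycycline-inducible, FLAG-tagged DN-Tcf4, a truncated Tcf4 that cannot bind beta-catenin and so represses Wnt target genes. All cells came from a single clone, so every group carries the same transgenes. Cells were left untreated (Ctl), exposed to 5 mM sodium butyrate (NaB), to 4 μg/ml doxycycline (Doxy) or to both agents (DoxyNaB). The methods place doxycycline first, and the 17.5 hr with or without butyrate after it. There was 1 array per treatment in each of 6 experiments (24 arrays). In a western blot of the study, DN-Tcf4 protein was plentiful only when both agents were present. The butyrate response with doxycycline (DoxyNaB/Doxy) is thus the response under repressed Wnt signaling, and NaB/Ctl the response without repression. The methods call the 6 experiments biological replicates, without saying more of how their cultures were kept apart. The limma p-values set each change against how far the treatment differences vary from experiment to experiment. That spread is shared by all treatments, and differences in level between experiments are taken out of it.

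Cyclin-dependent kinases (CDKs) drive the cell cycle when bound to cyclins, and CDK inhibitors hold them back. The CIP/KIP proteins p21, p27 and p57 bind cyclin-CDK complexes of several phases, whereas the INK4 proteins p15, p16, p18 and p19 bind CDK4 and CDK6 and keep cyclin D from them. CDKN3 is a phosphatase that removes the activating phosphate from CDK2 and CDK1. Butyrate, a fermentation product of dietary fibre, inhibits histone deacetylases, and p21 is the CDK inhibitor most often named in the growth arrest that it causes in colon cancer cells.

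The array probes are 60 bases long and read a piece of each transcript. Those shown here are the CDKN1A probe, since p21 is the best known of the group, a CDKN2A probe, since that gene fell most, and both CDKN3 probes, which lie in different exons. All 4 are written 5′ to 3′ in the sense of the transcript and read coding sequence.
CDKN1A, chr6:36760156-36760215 (NCBI36, plus strand): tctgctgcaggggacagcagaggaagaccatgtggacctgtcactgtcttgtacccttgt
CDKN2A, second probe, chr9:21960901-21960960 (NCBI36, minus strand): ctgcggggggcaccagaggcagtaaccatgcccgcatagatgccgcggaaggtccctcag
CDKN3, first probe, chr14:53948134-53952385 (NCBI36, plus strand): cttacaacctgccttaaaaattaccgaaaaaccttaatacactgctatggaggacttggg
CDKN3, second probe, chr14:53936384-53936443 (NCBI36, plus strand): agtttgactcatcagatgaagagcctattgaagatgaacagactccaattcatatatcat
The first CDKN3 probe spans 4252 bases of the genome with its 60 bases and so crosses a splice junction. Both CDKN2A probes match 3 RefSeq transcripts in the files, so p16 and p14ARF, which are made from the same gene in different reading frames, cannot be told apart.

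RefSeq promoter windows of GRCh38.p14, from 250 bases before to 50 after a transcript start, were found for 7 of the 8 genes, as 10 windows; none was given for CDKN1C. The GC box GGGCGG, to which Sp1 and Sp3 bind and through which butyrate is known to act on the p21 promoter, was searched on both strands, and overlapping matches were counted. It stood in 7 of the 10 windows and in 45.0% of 35116 promoters. The Tcf/Lef motif CTTTGAT stood in 0 of the 10 windows and in 2.62% of all promoters, and CCAAT in 4 of the 10 windows and in 34.6% of all. The windows shown are of CDKN1A and CDKN2D, whose signal was higher with butyrate, and of CDKN2A, whose signal was lower, at the p16 start. They hold 280 bases each and end 30 bases after the start. Capitals mark the GC boxes of either strand.
CDKN1A, chr6:36678464-36678743 (plus strand): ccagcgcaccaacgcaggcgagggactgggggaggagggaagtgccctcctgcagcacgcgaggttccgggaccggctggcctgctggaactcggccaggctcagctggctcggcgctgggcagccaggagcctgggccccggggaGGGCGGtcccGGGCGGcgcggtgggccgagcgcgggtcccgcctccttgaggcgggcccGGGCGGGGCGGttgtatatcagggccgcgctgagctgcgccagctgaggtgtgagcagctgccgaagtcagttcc
CDKN2D, chr19:10568950-10569229 (minus strand): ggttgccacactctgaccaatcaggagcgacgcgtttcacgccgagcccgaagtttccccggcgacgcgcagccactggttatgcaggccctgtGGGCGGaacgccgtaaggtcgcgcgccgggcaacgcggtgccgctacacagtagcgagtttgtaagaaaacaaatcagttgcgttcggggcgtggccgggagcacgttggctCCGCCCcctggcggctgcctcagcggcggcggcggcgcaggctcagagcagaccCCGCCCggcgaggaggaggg
CDKN2A at the p16 start, chr9:21974828-21975107 (minus strand): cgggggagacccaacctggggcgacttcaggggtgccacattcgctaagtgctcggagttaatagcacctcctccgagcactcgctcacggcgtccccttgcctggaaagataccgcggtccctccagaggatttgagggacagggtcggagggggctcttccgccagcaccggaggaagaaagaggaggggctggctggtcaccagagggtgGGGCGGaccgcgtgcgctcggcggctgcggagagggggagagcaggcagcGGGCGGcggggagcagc
CDKN1A held 4 GC boxes, beginning between positions -104 and -40 from its start, a number that 9.06% of promoters reach or pass. CDKN2D held 3, and CDKN2A held 2 at this start and 0 at the p14ARF start. The CDKN2A signal cannot be assigned to either start, and the part of the motif in the responses was not tested.

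Levels are log2 processed signals minus the log2 of the array's own 75th percentile (control spots left out), and cannot be compared between genes. Signal over background differed between experiments: 78.4% to 88.1% of the spots were well above background in experiments 2 to 4, and 52.7% to 62.6% in experiments 1, 5 and 6. The NaB array of experiment 3 and the DoxyNaB array of experiment 2 had the highest negative controls, with a net signal of 161 and 248.9. In experiment 1 the arrays with butyrate were on another slide than those without, so that for experiment 1 the effects of slide and butyrate cannot be told apart. Of 9 colon epithelial markers 7 were well above background on all 24 arrays (EPCAM, CDH1, KRT8, KRT18, KRT19, CDX1 and CDX2), whereas KRT20 was so on 13 arrays and VIL1 on 5. Of 12 leukocyte, endothelial and fibroblast markers 2 were above background on all arrays. Their summed log2 level was -0.67 to 0.25 in Ctl and 0.50 to 1.5 in NaB arrays, and COL3A1 was not well above background on any array. Of the 5 of these markers that were tested, 3 were called higher in NaB/Ctl, VWF and COL1A1 among them. VWF was well above background on 3 Ctl, 4 Doxy, 6 NaB and 6 DoxyNaB arrays, so it entered the test only through the butyrate groups. Of the 7 epithelial markers tested, EPCAM was called lower (-1.44) and CDH1 higher (1.00). The part of both lists in the results below was not tested.

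Butyrate changed the CDK inhibitors in both directions. A gene was called when it passed an adjusted p of 0.01 in limma (Benjamini-Hochberg over all probes) and a 2-fold change, each gene being read by its brightest probe. In NaB/Ctl 4 of the 8 were called, CDKN1C, CDKN2B and CDKN2D as higher and CDKN2A as lower, against 32.4% of all genes tested (21.2% higher and 11.2% lower). In DoxyNaB/Doxy 5 were called, the same 4 in the same directions and CDKN1B as lower, against 31.1% (18.8% higher and 12.3% lower). With normexp background correction, the second count was 3, without CDKN1B and CDKN2B. With scaling to the median, 5 were called in NaB/Ctl, CDKN1C as higher and CDKN1B, CDKN2A, CDKN2C and CDKN3 as lower. Calls were common among all genes, and with 8 members no difference from their share is read. In RNA from whole cultures, fewer cells that express a gene and less of its RNA per cell cannot be told apart. The median change of the 8 was 0.14 on the log2 scale in NaB/Ctl, beside 0.18 over all genes, and 0.31 in DoxyNaB/Doxy, beside 0.12.

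**Figure D1:**
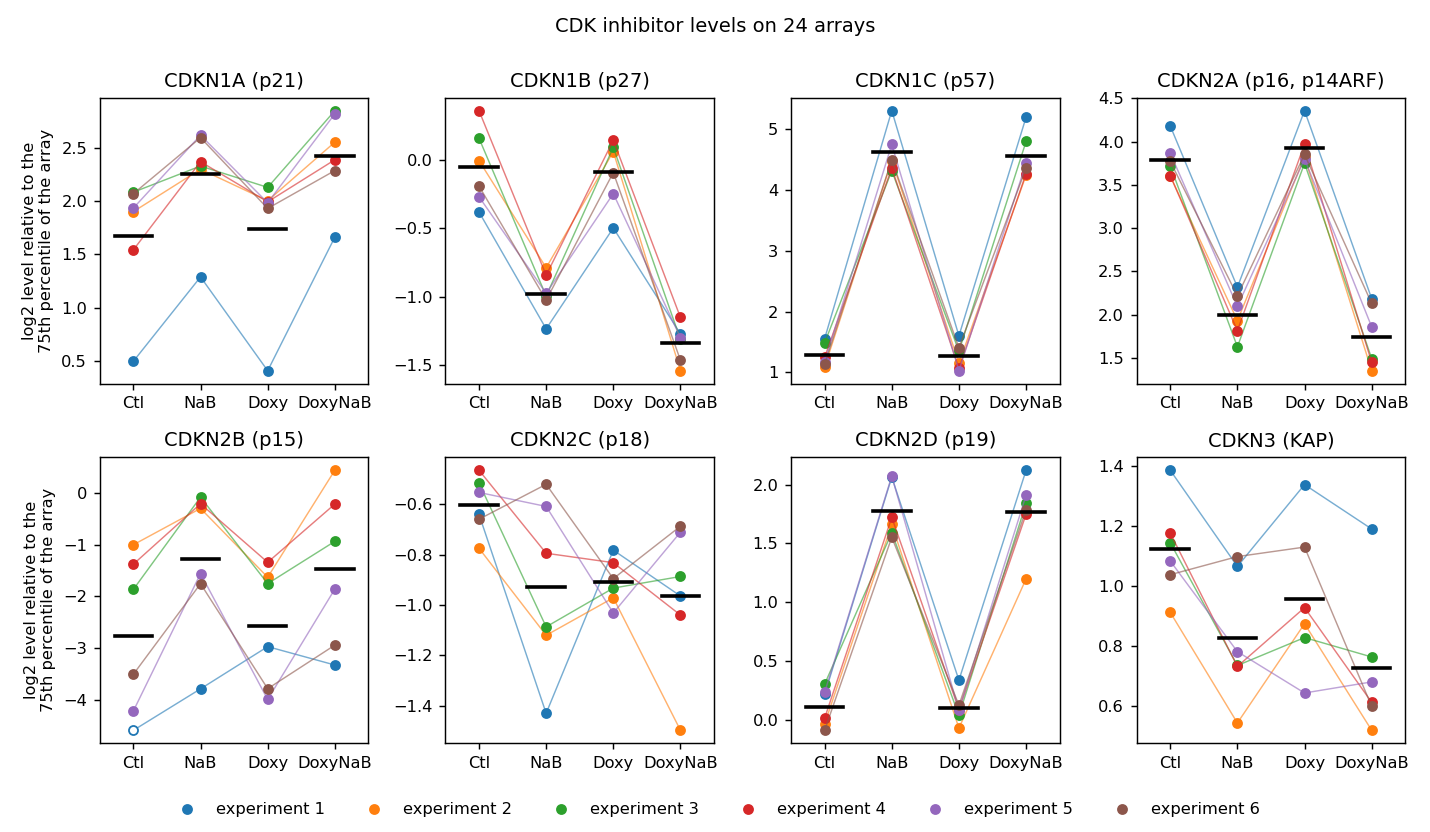
Log2 level of each CDK inhibitor relative to the 75th percentile of the array (y axis, a scale of its own in each panel) in the 4 treatments (x axis); each colour is 1 of 6 experiments, joined by a line, black bars are means, and the open point is not well above background. CDKN1C and CDKN2D sit high on all butyrate arrays and CDKN2A and CDKN1B low, CDKN1A runs about 1 log2 unit lower in experiment 1, and CDKN2B spreads by experiment.

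Among the CIP/KIP genes, CDKN1C rose most of all members. It encodes p57, an imprinted inhibitor linked to exit from the cell cycle during development. Its log2 level was 1.09, 1.21 and 1.55 in Ctl cells (lowest, median and highest of 6 arrays) and 4.32, 4.49 and 5.31 in NaB cells. In Doxy cells it was 1.03, 1.25 and 1.60, and in DoxyNaB cells 4.25, 4.40 and 5.20. Every array with butyrate thus stood above every array without, by 2.77 log2 units at the closest in NaB/Ctl. The log2 change was 3.34 ± 0.33 (SD over 6 experiments, adjusted p = 1.49e-14 by limma), a 10.1-fold rise, in NaB/Ctl. It was 3.29 ± 0.24 (adjusted p = 1.54e-14 by limma), a 9.77-fold rise, in DoxyNaB/Doxy. The difference between both responses was 0.05 on the log2 scale, with a 95% confidence interval of -0.26 to 0.37.

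CDKN1A was higher with butyrate by less than 2-fold. p21, its product, stops the cycle after DNA damage and during differentiation. Its log2 level was 0.50, 1.92 and 2.08 in Ctl cells (lowest, median and highest of 6 arrays), and 1.29, 2.35 and 2.62 in NaB cells. It was 0.41, 1.99 and 2.13 in Doxy cells, and 1.66, 2.47 and 2.85 in DoxyNaB cells. The lowest value of each treatment came from experiment 1, and with it the groups overlapped. Without experiment 1, chosen because it held these lowest values, they did not. The levels were then 1.54 to 2.08 in Ctl against 2.30 to 2.62 in NaB cells. With doxycycline they were 1.93 to 2.13 in Doxy against 2.29 to 2.85 in DoxyNaB cells. The share of all genes whose groups stand apart is not given, here or for the other members. The separations are therefore not read as unusual. The log2 change was 0.58 ± 0.23 (SD, higher in 6 of 6 experiments, adjusted p = 0.000134 by limma) in NaB/Ctl, a ratio of 1.49. In DoxyNaB/Doxy it was 0.69 ± 0.33 (higher in 6 of 6, adjusted p = 2.24e-05), a ratio of 1.61. CDKN1A therefore passed the test of p but not the 2-fold limit, where 69.5% of all genes passed that p in NaB/Ctl and 68.3% in DoxyNaB/Doxy.

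The CDKN1A change depended on how the arrays were scaled. The median change of all tested probes in NaB/Ctl was 0.18 with the 75th percentile, 0.08 with normexp, -0.09 with quantile normalization and -0.56 with scaling to the median. The CDKN1A change turned to -0.16 in NaB/Ctl with scaling to the median (adjusted p = 0.538 by limma) and was 0.14 in DoxyNaB/Doxy (adjusted p = 0.615). Relative to the median of all probes, it stayed between 0.40 and 0.82 in NaB/Ctl, and between 0.33 and 0.91 in DoxyNaB/Doxy, over the 4 scalings. Scaling to the 75th percentile and to the median each shift an array by a constant, apart from a floor under low signals. Subtracting the median of all probes thus brings these scalings to nearly the same value by construction, 0.40 in NaB/Ctl and 0.57 in DoxyNaB/Doxy. Without the experiment as a replicate block the p was lost (adjusted p = 0.104 in NaB/Ctl and 0.057 in DoxyNaB/Doxy by limma). In experiments 2 to 4, which share a scan date, the change was 0.49 (NaB/Ctl) and 0.56 (DoxyNaB/Doxy). In experiments 5 and 6, which share another date, it was 0.61 and 0.60.

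CDKN1B fell with butyrate in the presence of doxycycline. p27 restrains cyclin E-CDK2 in resting cells and is controlled largely by protein turnover. Its bright probe, printed in 10 spots per array, read -0.38, -0.10 and 0.36 in Ctl cells (lowest, median and highest log2 level of 6 arrays) and -1.24, -0.99 and -0.79 in NaB cells. It read -0.50, -0.02 and 0.14 in Doxy cells and -1.54, -1.31 and -1.15 in DoxyNaB cells. No array with butyrate reached the lowest array without it in the same comparison. The log2 change was -0.92 ± 0.21 (SD over 6 experiments, adjusted p = 4.48e-08 by limma), 1.90-fold lower, in NaB/Ctl. It was -1.25 ± 0.29 (adjusted p = 7.03e-10), 2.38-fold lower, in DoxyNaB/Doxy. CDKN1B was past the 2-fold limit in the second comparison and short of it in the first, but the difference between both did not pass (0.33 on the log2 scale, 95% confidence interval 0.06 to 0.60, adjusted p = 0.286). With scaling to the median, the NaB/Ctl change was -1.66, and with quantile normalization -1.14. The second CDKN1B probe was dim, well above background on 20 of 24 arrays, and read -0.17 in NaB/Ctl (adjusted p = 0.676 by limma) and -0.52 in DoxyNaB/Doxy (adjusted p = 0.196), with an SD over experiments of 0.79 and 1.14. With the mean of both probes, the DoxyNaB/Doxy change was -0.89 (adjusted p = 0.000117 by limma), under the 2-fold limit.

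**Figure D2:**
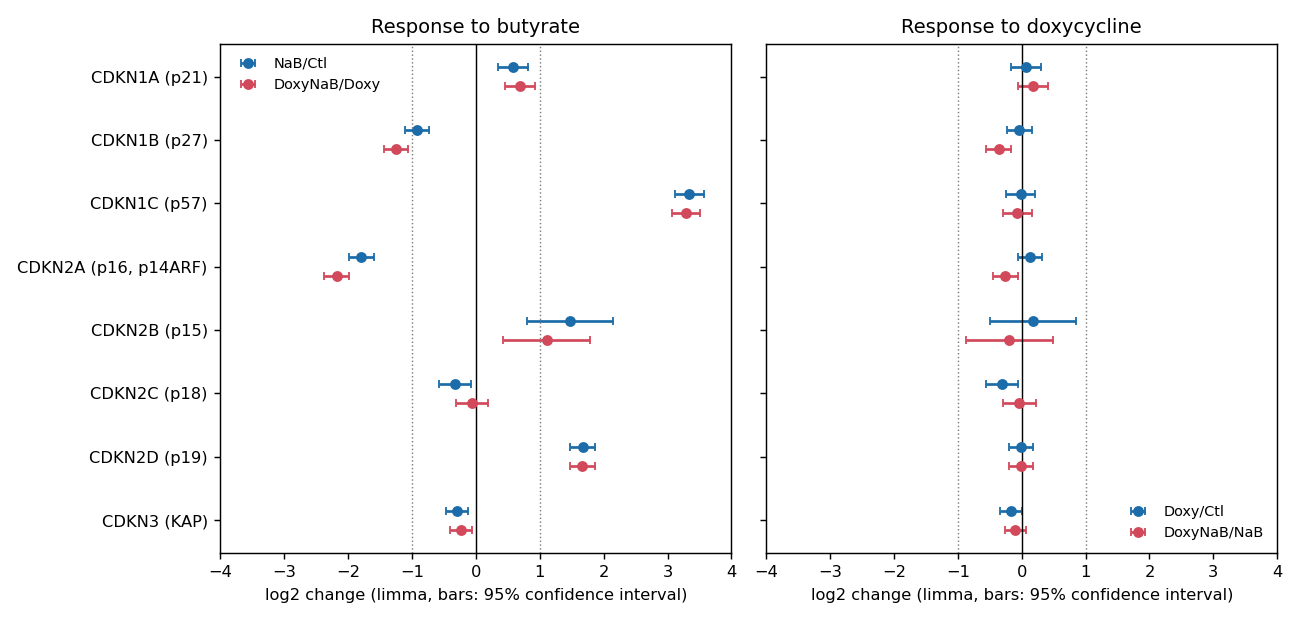
Log2 change (x axis) of each CDK inhibitor (y axis) with butyrate (left) and with doxycycline (right); points are limma estimates over 6 experiments, bars 95% confidence intervals, dotted lines a 2-fold change. Butyrate gave changes from -2.18 (CDKN2A) to 3.34 (CDKN1C), and doxycycline gave changes from -0.36 (CDKN1B in DoxyNaB/NaB) to 0.18; CDKN1A turned below 0 in NaB/Ctl when arrays were scaled to the median.

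Of the INK4 genes, CDKN2A fell and CDKN2D rose, each by more than 3-fold in both comparisons. p16 keeps CDK4 and CDK6 from cyclin D, and p14ARF, read from the same locus, binds MDM2. The bright CDKN2A probe (chr9:21958039-21958098) read 3.60, 3.75 and 4.18 in Ctl cells (lowest, median and highest log2 level of 6 arrays) and 1.63, 2.01 and 2.32 in NaB cells. It read 3.75, 3.84 and 4.36 in Doxy cells and 1.35, 1.68 and 2.18 in DoxyNaB cells. The groups were apart by 1.28 log2 units at the closest in NaB/Ctl and by 1.56 in DoxyNaB/Doxy. The log2 change was -1.79 ± 0.18 (SD over 6 experiments, adjusted p = 4.76e-12 by limma), 3.46-fold lower, in NaB/Ctl. It was -2.18 ± 0.31 (adjusted p = 3.2e-13), 4.53-fold lower, in DoxyNaB/Doxy. The second probe, shown above, read -2.04 ± 0.30 and -2.27 ± 0.29, so both probes moved alike. Butyrate lowered CDKN2A more with doxycycline in 6 of 6 experiments, by 0.39 on the log2 scale (95% confidence interval 0.12 to 0.66), but this difference did not pass over all probes (adjusted p = 0.162 by limma), and the second probe gave 0.23 (adjusted p = 0.637).

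CDKN2D encodes p19, the INK4 protein whose level swings within the cell cycle. Its log2 level was -0.09, 0.11 and 0.30 in Ctl cells (lowest, median and highest of 6 arrays), and 1.55, 1.69 and 2.07 in NaB cells. It was -0.07, 0.08 and 0.34 in Doxy cells, and 1.20, 1.81 and 2.12 in DoxyNaB cells. Every butyrate array stood above every array without butyrate. The rise was 1.67 ± 0.20 on the log2 scale (SD, adjusted p = 1.28e-11 by limma) in NaB/Ctl and 1.67 ± 0.21 (adjusted p = 1.22e-11) in DoxyNaB/Doxy, 3.18-fold in both. With scaling to the median the NaB/Ctl change was 0.93, just under the 2-fold limit, although the median of all probes was then -0.56. The difference between both responses was 0.00, with a 95% confidence interval of -0.27 to 0.27.

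CDKN2B, whose product p15 is a target of TGF-beta signaling, lay near background in part of the experiments. Its log2 level was -4.59, -2.69 and -1.0 in Ctl cells (lowest, median and highest of 6 arrays) and -3.79, -0.93 and -0.08 in NaB cells. It was -4.0, -2.36 and -1.34 in Doxy cells and -3.33, -1.40 and 0.44 in DoxyNaB cells. The groups overlapped in both comparisons, and levels were highest in experiments 2 to 4, the experiments with the most spots above background. The log2 change was 1.48 ± 0.74 (SD, higher in 6 of 6 experiments, adjusted p = 0.000424 by limma), a 2.79-fold rise, in NaB/Ctl. It was 1.11 ± 0.93 (higher in 5 of 6, adjusted p = 0.0046), a 2.15-fold rise, in DoxyNaB/Doxy. The p of this second change was lost under 13 alternatives and held under 7. It was lost without experiment 2, 3, 4 or 5 (adjusted p = 0.029, 0.0116, 0.0181 and 0.0231 by limma), with quantile normalization (adjusted p = 0.0159), with scaling to the median (adjusted p = 0.109) and with the methods' paired t-test after Benjamini-Hochberg (adjusted p = 0.0493). Both butyrate calls were lost without the replicate block (adjusted p = 0.10 and 0.222 by limma). With normexp the NaB/Ctl change was 0.63 (adjusted p = 0.0277 by limma). By scan date, the NaB/Ctl change was 1.22 in experiments 2 to 4 and 2.21 in experiments 5 and 6.

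CDKN2C, the gene of p18, was not called in any comparison. Its log2 level was -0.77, -0.60 and -0.47 in Ctl cells (lowest, median and highest of 6 arrays) and -1.43, -0.94 and -0.52 in NaB cells. In Doxy cells it was -1.03, -0.91 and -0.78, and in DoxyNaB cells -1.5, -0.93 and -0.69. The change was -0.33 ± 0.34 (SD, adjusted p = 0.021 by limma) in NaB/Ctl, lower in 5 of 6 experiments, and -0.06 ± 0.31 (adjusted p = 0.68) in DoxyNaB/Doxy. All 6 Doxy arrays stood below all 6 Ctl arrays, by 0.01 log2 units at the closest. That change of -0.31 ± 0.13 gave an adjusted p of 0.276 by limma and an unadjusted p of 0.00251 by the methods' paired t-test, both short of a 2-fold change. With scaling to the median, CDKN2C was called lower in NaB/Ctl (-1.07, adjusted p = 0.00065 by limma), where the median of all probes was -0.56.

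CDKN3, the phosphatase, differed little with butyrate. Its first probe read 0.91, 1.12 and 1.39 in Ctl cells (lowest, median and highest log2 level of 6 arrays) and 0.54, 0.76 and 1.10 in NaB cells. It read 0.64, 0.90 and 1.34 in Doxy cells and 0.52, 0.65 and 1.19 in DoxyNaB cells. The groups overlapped, and the change was -0.30 ± 0.18 (SD, lower in 5 of 6 experiments, adjusted p = 0.00262 by limma) in NaB/Ctl and -0.23 ± 0.21 (lower in 5 of 6, adjusted p = 0.015) in DoxyNaB/Doxy. The second probe gave -0.36 ± 0.21 (adjusted p = 0.00823) and -0.47 ± 0.36 (adjusted p = 0.00109), lower in 6 of 6 experiments. Both probes stayed under a 2-fold change here, but with scaling to the median the first read -1.04 in NaB/Ctl (adjusted p = 0.000156 by limma) and was called lower, the median of all probes then being -0.56. The p of CDKN3 in NaB/Ctl was lost under 10 alternatives and held under 11. It was lost with normexp (-0.18, adjusted p = 0.170 by limma), with quantile normalization (adjusted p = 0.0108), with the methods' paired t-test after Benjamini-Hochberg (adjusted p = 0.0168) and without experiment 2, 3 or 4 (adjusted p = 0.0106, 0.0149 and 0.0193 by limma).

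Doxycycline, and with it DN-Tcf4, changed none of the 8 CDK inhibitors past the thresholds. In Doxy/Ctl 0 of 8 were called by limma, against 0.0924% of all genes, and 1, CDKN2C, had an unadjusted p under 0.05. In DoxyNaB/NaB, where DN-Tcf4 is abundant, 0 were called, against 0.396% of all genes, and CDKN1B and CDKN2A had an unadjusted p under 0.05. In the interaction (NaB/Ctl minus DoxyNaB/Doxy) 0 passed an adjusted p of 0.01, against 1.33% of all genes, and CDKN1B and CDKN2A again had an unadjusted p under 0.05. The methods' paired t-test after Benjamini-Hochberg called 0 of the 8 in these 3 comparisons. It called only 3 (Doxy/Ctl), 8 (DoxyNaB/NaB) and 0 (interaction) of all 18979 probes, so nothing is read from this. CDKN1B was lower in DoxyNaB than in NaB cells in 6 of 6 experiments, by 0.36 ± 0.23 on the log2 scale (SD, adjusted p = 0.0269 by limma). CDKN2A fell short by more, with -0.26 ± 0.19 (lower in 6 of 6 experiments, adjusted p = 0.139). For CDKN1A, which MYC represses, DoxyNaB/NaB gave 0.18 ± 0.29 (higher in 5 of 6 experiments, adjusted p = 0.504), with a 95% confidence interval of -0.06 to 0.41. The intervals of CDKN1C (-0.29 to 0.16) and CDKN2D (-0.20 to 0.18) in DoxyNaB/NaB excluded a 2-fold change in either direction. For CDKN2B the interval was wider, from -0.87 to 0.48, but it excluded a 2-fold change as well.

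MYC, a Wnt target known to repress CDKN1A and CDKN2B, did differ with doxycycline. Its log2 change was -1.52 (adjusted p = 7.99e-11 by limma) in DoxyNaB/NaB and 0.08 (adjusted p = 0.688) in Doxy/Ctl. Cyclin D1 (CCND1), the partner of CDK4 and CDK6 and another Wnt target, stood at -0.99 in DoxyNaB/NaB (adjusted p = 2.49e-06), just under the 2-fold limit. Both passed the interaction test (adjusted p = 1.74e-08 and 0.000195), which no CDK inhibitor did.

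The kinases that these inhibitors act on, and their cyclins, mostly fell with butyrate. Of all genes, 11.2% were called lower and 21.2% higher in NaB/Ctl. Of 7 G1 genes tested, 4 were called lower and 1 higher in NaB/Ctl, with a median log2 change of -1.06 beside 0.18 over all genes. CDK6 (-2.16 ± 0.24, SD over 6 experiments), CDK4 (-2.0 ± 0.22) and CCND1 (-1.97 ± 0.21) fell most, and CCND3, cyclin D3, rose by 1.19. So CDK4 and CDK6, the partners of INK4 proteins, fell together with CDKN2A, while CDKN2D rose. Of 6 S and M phase genes, 4 were called lower and CCNB3 higher, with CCNA2 at -2.61 ± 0.27, CDK1 at -2.04 ± 0.38 and CCNB1 at -1.72 ± 0.19. CCND3 and CCNB3 were no longer called with scaling to the median, under which 6 of 7 and 5 of 6 genes of these lists were called lower, and CCNB3 was not called with normexp either.

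Genes downstream of the kinases mostly fell as well, where 11.2% of all genes were called lower in NaB/Ctl. Of 13 RB and E2F genes 7 were called lower and 0 higher in NaB/Ctl, led by E2F8 (-3.20 ± 0.97), E2F2 (-2.72 ± 0.17) and E2F3 (-1.96 ± 0.16). RB1 was not among those called, and its change ran from -0.49 to 0.27 over the scalings. E2F8 was well above background on 6 Ctl arrays but on only 4 NaB arrays. Its change ran from -4.03 to -2.02 over the scalings, so the size of its fall is uncertain. Of 22 mitotic genes 18 were called lower and 0 higher, with a median of -1.81, and UBE2C (-2.33 ± 0.36), AURKB (-2.31 ± 0.36) and FOXM1 (-2.13 ± 0.28) fell most. Of 8 genes that activate or block CDKs by phosphorylation, 3 were called lower, WEE1 (-2.86 ± 0.44) and PKMYT1 (-2.07 ± 0.33), which are inhibitory kinases, and CDC25A (-2.61 ± 0.39), an activating phosphatase. WEE1, PKMYT1 and CDC25A were lower under each of the 4 scalings, as were the E2F and mitotic genes named.

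Factors that act on the inhibitors themselves were mixed. Of 13 genes of CIP/KIP protein turnover, 7 were called lower in NaB/Ctl and 0 higher, among them CKS1B (-2.41 ± 0.27) and SKP2 (-1.73 ± 0.18), which mark p27 for destruction, and CUL1 (-1.76 ± 0.67), the scaffold of their ligase. The other 6 were not called, and SKP1, which links SKP2 to CUL1, read 0.52. Of all genes, 11.2% were called lower in NaB/Ctl. Of 17 factors known for CDKN1A, 2 were called higher and 2 lower, SMAD3 (-2.30 ± 0.12), a mediator of TGF-beta signaling, among the latter, beside 32.4% of all genes called. Of 14 factors and Polycomb genes known for the INK4 locus 2 were called, ETS1 (2.16 ± 0.34) and ID2 (1.33 ± 0.14), both higher. In NaB/Ctl neither of these 2 lists held a larger share of called genes than the array as a whole. In DoxyNaB/Doxy the counts of calls higher and lower were 1 and 5 for the G1 genes, 1 and 4 for the S and M phase genes, 0 and 7 for RB and E2F, 0 and 17 for the mitotic genes, and 1 and 3 for the CDK enzymes. They were 0 and 6 for CIP/KIP turnover, 2 and 5 for the CDKN1A factors, and 1 and 1 for the INK4 factors. Of all genes, 31.1% were called in this comparison, a smaller share than in each of these lists but the INK4 factors.

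**Figure D3:**
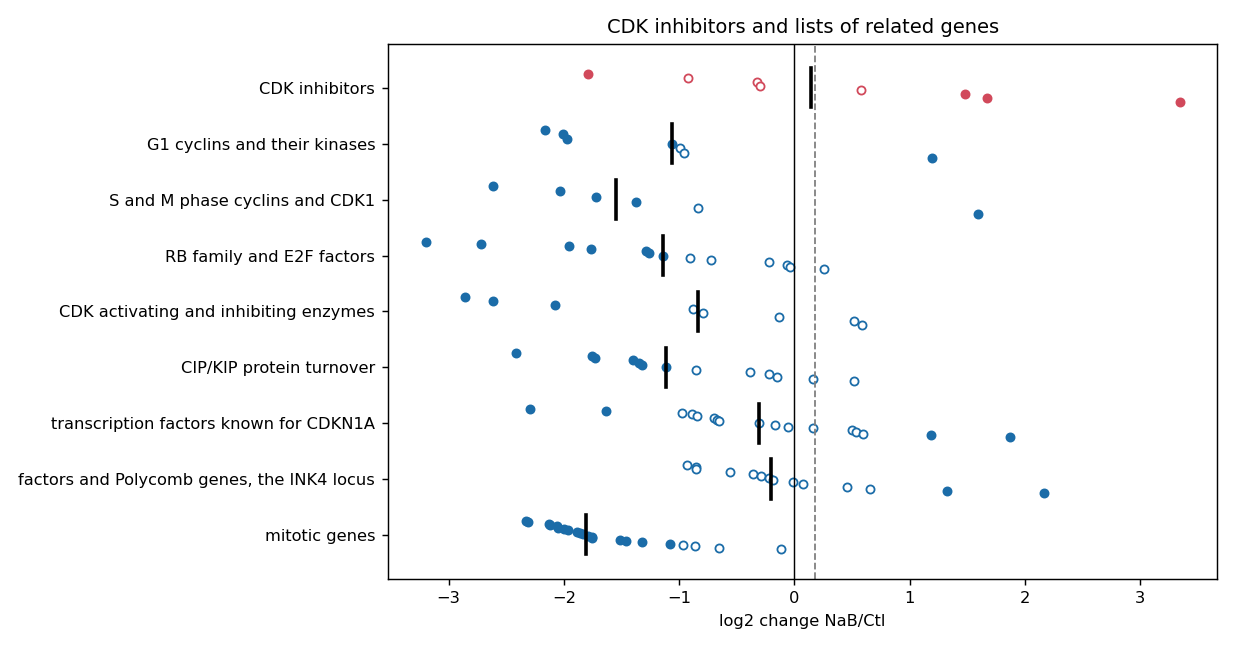
Log2 change NaB/Ctl (x axis) of each gene in the CDK inhibitors (red) and 8 lists of related genes (blue); filled points were called by limma, black bars are list medians, and the dashed line is the median of all tested probes (0.18). The CDK inhibitors spread to both sides of that line, while 18 of 22 mitotic genes were called lower, against 11.2% of all genes. With scaling to the median the line itself moved to -0.56 and CDKN1A read -0.16.

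The levels of the members ran together or against each other along the butyrate response. After each probe was centred on its experiment, CDKN1C and CDKN2D had a Pearson r of 0.99 over 24 arrays, CDKN1A and CDKN1C 0.90, and CDKN1C and CDKN2A -0.98. CDKN2B and CDKN2C had the weakest relation, with -0.22. These values describe arrays that share 4 treatments, slides and scaling. Among 18325 probes, the genes most like CDKN1A were COQ10B (r = 0.98 over 24 arrays), METTL14 (0.96), TMEM38B (0.95), SERINC3 (0.95) and MTNAP1 (0.95). Those most like CDKN3 were CRYZ (0.93), ANKRD39 (0.90), GMPR2 (0.90), LDHA (0.89) and TIMM23 (0.89). The changes of the latter in NaB/Ctl lay between -0.44 and -0.29, as small as that of CDKN3, and none of the 22 mitotic genes was among them.

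**Figure D4:**
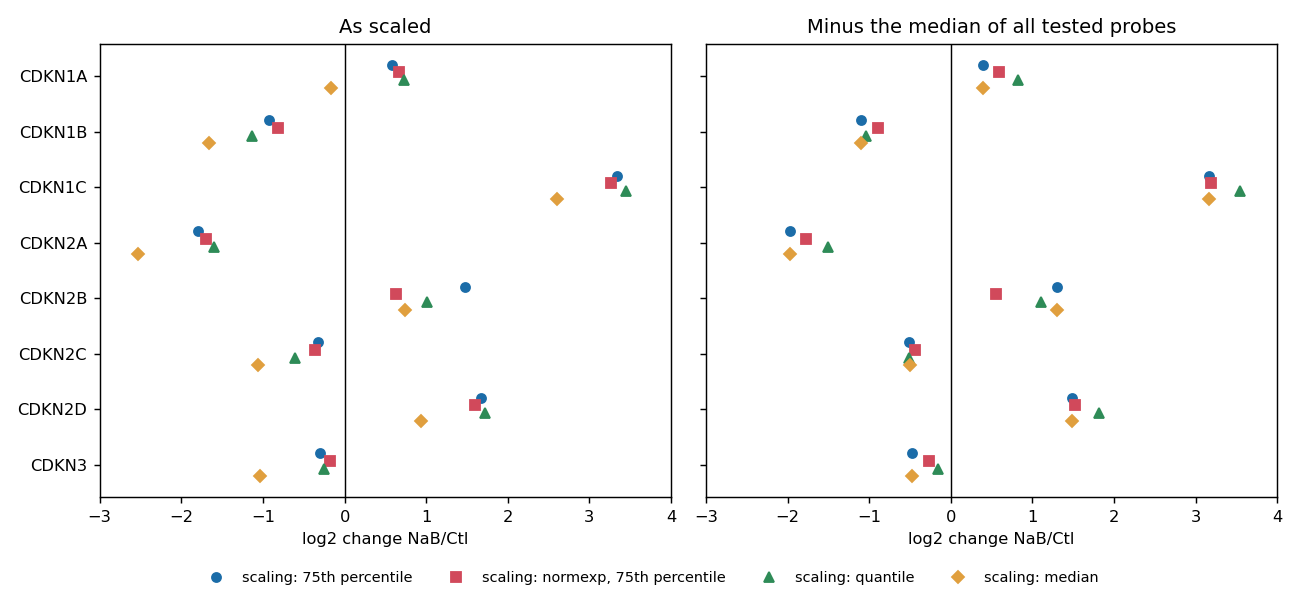
Log2 change NaB/Ctl of each CDK inhibitor (y axis) under 4 scalings of the arrays (symbols), as scaled (left) and after subtracting the median of all tested probes under the same scaling (right). CDKN1A crossed 0 with scaling to the median (-0.16), whereas relative to all probes it stayed between 0.40 and 0.82, and every other member kept its side of 0 on the left.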

How the data were processed

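Total RNA was labelled in 1 colour and hybridised to human whole genome arrays. The deposited files hold spot intensities from Agilent Feature Extraction 9.5.3.1; per the file headers, background and a spatial trend were subtracted from each processed signal, and arrays were not scaled to each other. The authors used a paired test in GeneSpring.

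Here, controls and outlier-flagged spots (359 to 795 per array) were dropped, spots of a probe averaged, and log2 signals taken relative to the 75th percentile of the array, which was 382 to 1345. The filter kept probes that stood well above background in every array of some treatment. limma 3.58.1 in R 4.3.3 fitted all 24 arrays with the experiment as a block; tables and plots used Python 3.11.15. Arrays of an experiment shared a slide in experiments 2 to 6 and correlated in 35 of 36 pairs with r from 0.219 to 0.851 (NaB and DoxyNaB of experiment 3: -0.217). The fit was tested on simulated data. The arrays' number and signal limit the precision.

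Members are read by the probe of highest mean level. Named besides are the 5 genes most like CDKN1A and CDKN3, up to 3 called genes of each list with the largest NaB/Ctl change, and genes on which a member's result turns. Members and lists were chosen with earlier results of these data known. Alternatives covered background, scaling, filter, block, test, threshold, probe summary and left-out experiments. Those by scan date and without the arrays of highest negative controls were chosen after seeing the data. Coordinates of probes are the files' (NCBI36); promoters are RefSeq's (GRCh38.p14). A few genes and the lists named for them are not reported here.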

Additional observations from a re-analysis of the deposited data

Results flagged for a closer look

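In each of 72 sets of 6 values (a member's levels in a treatment, or its changes in a comparison), the gap of the highest or lowest value to its neighbour was divided by the range of the set and compared with Dixon's critical value of 0.625. Chance passes about 1 set in 20, and 10 passed here. For CDKN1A, experiment 1 was lowest in Ctl (ratio 0.659), NaB (0.760) and Doxy (0.885) cells, with log2 levels of 0.50, 1.29 and 0.41 against 1.54, 2.30 and 1.93 in the next arrays. Experiment 1 was also highest for CDKN2A in Doxy cells (0.634; level 4.36 against 3.97) and for CDKN3 in DoxyNaB cells (0.636; 1.19 against 0.76). CDKN1C was higher in DoxyNaB than in NaB cells in experiment 3 alone (0.725; change 0.48 against -0.09), where the NaB array had high negative controls. The smallest CDKN2D rise in NaB/Ctl was that of experiment 3 (0.631; 1.29 against 1.64), and in DoxyNaB/Doxy that of experiment 2 (0.698; 1.27 against 1.66), again the arrays with the highest negative controls. CDKN3 in experiment 6 changed by 0.06 in NaB/Ctl against -0.30 in the next experiment (0.718), and its difference between both butyrate responses was 0.59 against -0.01 (0.646). The part of slide and background in these values was not tested.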

How the results depend on the processing

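Over all alternatives, 786 values of single members stayed on their side of the threshold of p (0.01, or 0.05 in the alternative that sets it), 31 no longer passed it and 9 newly did, whatever the fold. Of the 786, 58 had the opposite sign, all of them values that did not pass the p in the first setting. CDKN1C, CDKN2A and CDKN2D passed the adjusted p in both butyrate comparisons under every alternative, with CDKN1C between 2.60 and 3.47 in NaB/Ctl. CDKN1B did so as well, with a change between -1.66 and -0.55 in NaB/Ctl, although its dim second probe alone did not pass. Of the values that had passed, 1 turned its sign, CDKN1A in NaB/Ctl with scaling to the median, -0.16. The count of members called in DoxyNaB/Doxy fell from 5 to 3 with normexp, where CDKN1B read -0.92 and CDKN2B 0.82; the cause was not tested. Leaving out 1 experiment at a time gave 4 in NaB/Ctl and 4 to 5 in DoxyNaB/Doxy. Without the replicate block, the counts were 3 in NaB/Ctl and 4 in DoxyNaB/Doxy, without CDKN2B, and 0 in Doxy/Ctl, DoxyNaB/NaB and the interaction. Over all probes, normexp called 2991 in NaB/Ctl against 6013, and the share of calls that were higher was 66.0% in the first setting, 53.9% with normexp, 43.7% after quantile normalization and 21.9% after median scaling. In DoxyNaB/Doxy the share was 60.5% in the first setting, 42.9% after quantile normalization and 26.0% after median scaling. In DoxyNaB/NaB the probes called were 71, and 43 with scaling to the median or 37 with normexp, of which 33.8%, 44.2% and 32.4% were higher. In Doxy/Ctl they were 18, 11 with normexp, 12 with quantile normalization and 5 with scaling to the median. In the interaction 232 were called, 43 under normexp and 9 when scaled to the median, of which 82.3%, 86.0% and 11.1% were positive. The probe of CDKN2B and the second of CDKN1B were limited by signal over background, and CDKN2B could not be fitted where only probes above background on all arrays entered.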
